A study of Mus musculus with 18 samples.

Results

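Brown adipose tissue (BAT) was set against subcutaneous white adipose tissue (sWAT) in mice kept in the cold, to see which differences between the depots persisted once sWAT had been exposed to a temperature that induces browning. The members are 6 of the 18 arrays of the series, the 3 of BAT and the 3 of sWAT at 6°C, chosen by their titles. The 6 arrays of the same depots at 28°C served for comparison. The 6 arrays of mesenteric fat entered the estimate of the spread, the choice of the brightest probe set of a gene, and the quantile normalization tried as an alternative. The mice of all groups were Sv129 females aged 10 wk, housed singly and held for 10 days at 28 or 6°C, with no mutation or drug named for any group. BAT was interscapular, sWAT was inguinal, and whole dissected depots were used, so that a lower level can mean fewer cells of a type or less RNA per cell, and these cannot be told apart. The study states 3 biological replicates in groups of 4 mice, and the labels do not tell which arrays share a mouse.

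Brown adipocytes burn fuel in densely packed mitochondria, where uncoupling protein 1 (UCP1) lets protons leak back across the inner membrane and so turns respiration into heat. Cold acts on them through noradrenaline, beta-adrenoceptors and cAMP. In the cold, inguinal fat also forms UCP1-positive cells, called beige or brite, that lie among white adipocytes and do not share the developmental history of classical brown fat. Genes of heat production can therefore be shared between the depots at 6°C, while genes of position and lineage need not be.

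The titles conflict with the other labels. The tissue given among the characteristics differs from the title in 6 of the 6 arrays at 6°C and the temperature in 3 of the 6; for the same depots at 28°C both differ in 5 of 6. With arrays grouped by title, a marker of brown fat lay on the side of the named tissue: the 3 BAT arrays at 6°C held Zic1, a transcription factor of the classical brown lineage, at log2 intensities of 9.85, 9.93 and 9.84 and the 3 sWAT arrays at 2.87, 3.01 and 3.74. Replicates of these groups correlated at 0.982 to 0.989. At 6°C the arrays' median log2 intensities were 6.97 to 7 for BAT and 7.14 to 7.18 for sWAT.

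Skeletal muscle transcripts set 1 array of each depot at 6°C apart. The mean level of 24 muscle genes was 8.16, 10.3 and 8.78 in BAT arrays 1, 2 and 3 at 6°C, and 6.97, 10.98 and 7.7 in sWAT arrays 1, 2 and 3. Array 2 was therefore the highest in both depots, by over 1.5 log2 in BAT and over 3 in sWAT. Of the 24 genes, 3 passed the test at 6°C, all higher in BAT, near the share of all genes (13.4% higher), and their values are given below. These 2 arrays are called the muscle-rich arrays. Counts without both stand beside the results that they touch; leaving them out leaves 2 arrays a group at 6°C. At 28°C muscle levels were higher, at 9.04, 12.54 and 12.1 in BAT arrays 1, 2 and 3 and 9.97, 11.61 and 7.87 in sWAT arrays 1, 2 and 3. Leaving out BAT arrays 2 and 3 and sWAT array 2 at 28°C leaves 1 BAT array there, assumed to vary like the other groups.

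At 6°C, 6024 of 45037 probe sets (13.4%) were higher in BAT and 4653 (10.3%) were lower, by limma with Benjamini-Hochberg adjustment over all probe sets and an adjusted p under 0.01, the threshold used throughout. At 28°C 5949 (13.2%) were higher and 4352 (9.66%) lower. Taking for each of 18193 genes its brightest probe set, 2435 genes (13.4%) were higher in BAT at 6°C and 2444 (13.4%) lower, against 2631 (14.5%) and 2369 (13%) at 28°C. The median difference over all genes was 0.09 log2 at 6°C and 0.08 at 28°C. Of the probe sets called at 6°C, 56.4% were higher in BAT; with each array centred on its median, which moves the median of all probe sets by 0.17 log2, the share was 73.1%, and with a difference of at least 1 log2 asked for it was 45.2%. Without the 2 muscle-rich arrays, 3030 probe sets were called higher and 2634 lower.

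Most depot differences seen at 28°C were still called at 6°C. Of the probe sets higher in BAT at 28°C, 3514 were also higher at 6°C, which is 59.1% of those called at 28°C and 58.3% of those called at 6°C. Of those lower in BAT at 28°C, 3063 were also lower at 6°C, 70.4% of the list at 28°C and 65.8% of that at 6°C. The arrays at 6 and 28°C are separate, and only the estimate of spread is shared. Some shrinkage at 6°C comes with selecting on the size at 28°C. A further 2424 probe sets higher at 28°C and 1282 lower at 28°C were not called at 6°C, and 90.7% and 91.5% of these kept their sign. Without the muscle-rich arrays, 1983 were higher and 1960 lower at both temperatures, and without the 3 arrays at 28°C named above 1550 and 1354.

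The difference between the depots itself changed with temperature for far fewer probe sets. The contrast of the depot difference at 6°C minus that at 28°C, which uses the arrays of both comparisons, was above 0 for 65 probe sets (0.144%) and below 0 for 98 (0.218%). By gene, 34 (0.187%) were above and 51 (0.28%) below. Among the probe sets higher in BAT at 28°C, 75 were narrowed by this test and 4 were widened; among those lower in BAT, 18 were narrowed and 3 widened. Of the 75, 27 were still called higher at 6°C and 11 were called lower. The level at 6 minus 28°C was called within BAT for 51 of the 75 and within sWAT for 22. In 28 of them sWAT moved more than BAT. Of the 18, it was called within BAT for 18 and within sWAT for 0. Without the muscle-rich arrays 37 probe sets passed this contrast, with 17 and 3 narrowed. Without the 3 arrays at 28°C named above limma called 0 changes, 7 at an adjusted p under 0.05 and 4090 at an unadjusted p under 0.05. All of the 163 changes had the same sign there, and the 26 changes of named genes were 0.83 to 1.1 times their values with all arrays. These changes were chosen by the test on all arrays, and that fit reuses the remaining arrays. Such agreement was therefore largely set by the choice and is no independent evidence. Statements below on which arrays a change depends on leave that fit aside.

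**Figure D1:**
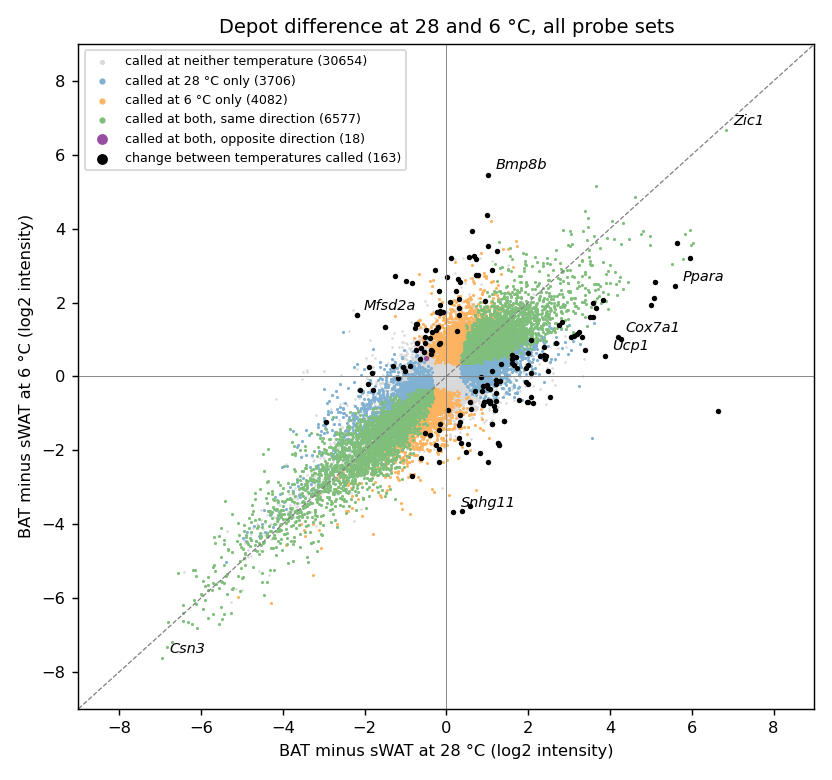
Each point is 1 of 45037 probe sets, with the log2 difference BAT minus sWAT at 28°C on the x axis and at 6°C on the y axis; colours give the temperatures at which limma called the difference, and the dashed line marks equal differences. Zic1 (6.83 and 6.66) lies near the dashed line, Ucp1 (3.87 and 0.57) and Cox7a1 (4.19 and 1.06) lie far under it, and Bmp8b (1.02 and 5.47) lies far above it.

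Of the lineage factors of the brown depot, Zic1 differed most. Zic1 was 6.66 ± 0.17 log2 higher in BAT at 6°C (± SE, n = 3 arrays a depot, limma adjusted p = 1.7e-11) and 6.83 higher at 28°C. Its sWAT arrays lay near the bottom of the scale, where 1.66 to 11.3% of an array's probe sets read lower at 6°C and 1.65 to 2.33% at 28°C, so that no fold is given. The groups did not overlap, and both probe sets of the gene were called higher. Olig1, a basic helix-loop-helix factor best known from oligodendrocytes, stood at 8.67, 9.42 and 8.86 in BAT and at 5.57, 5.35 and 5.22 in sWAT. Its difference was 3.6 ± 0.24 log2 at 6°C (adjusted p = 2.2e-07) and 5.63 at 28°C, so it was called at both temperatures while the change of -2.02 passed the test (adjusted p = 0.0085). That call was lost (adjusted p of 0.017 to 0.03) on leaving out 1 array, whichever of the 12 it was, other than BAT array 2 at 6°C or sWAT array 1 at 28°C.

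Prdm16, a zinc-finger coregulator that maintains brown adipocyte identity, read 10.31, 10.48 and 10.3 in BAT and 9.33, 8.83 and 9.01 in sWAT at 6°C. It was 1.3 ± 0.23 log2 higher in BAT (adjusted p = 0.00049, or 0.013 without the muscle-rich arrays; 2.27 at 28°C, change -0.97, adjusted p = 0.16), with no overlap. Lhx8, a LIM homeobox factor proposed as a brown marker, read 9.83, 9.92 and 9.98 in BAT and 8.74, 9.35 and 8.7 in sWAT, a difference of 0.98 ± 0.45 log2 that did not pass the test (adjusted p = 0.098), against 2.06 at 28°C, which did; its change of -1.08 did not (adjusted p = 0.49). En1, a homeobox factor of the embryonic somite, was lower in BAT at 6°C by 1.7 ± 0.37 log2, written here as a difference of -1.7 (adjusted p = 0.0024), and was not called at 28°C (-1.36). Its change of -0.34 did not pass (adjusted p = 0.86). The call at 6°C was lost without BAT array 1, sWAT array 1 or sWAT array 2 (adjusted p of 0.01 to 0.028, both muscle-rich arrays left out included). In all, 4 of the 15 measured lineage factors were higher in BAT and 2 lower at 6°C, against 6 and 0 at 28°C, and the median difference was 0.16 log2 at 6°C and 0.66 at 28°C. Over all genes 13.4% were higher and 13.4% lower at 6°C, and 14.5% and 13% at 28°C. The 2 lower at 6°C therefore lay near the share of all genes. The 6 called at 6°C became 3 without BAT array 1 and 2 without both muscle-rich arrays.

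Hox genes, whose order along their clusters follows position along the body axis, were called in similar numbers at both temperatures. Of 33 measured, 8 were higher in BAT and 7 lower at 6°C, and 7 and 7 at 28°C; this count stayed between 10 and 18 called under all alternatives run. Hoxa10 read 3.44, 3.38 and 2.93 in BAT and 10, 9.61 and 10.04 in sWAT at 6°C, a difference of -6.63 ± 0.98 log2 (adjusted p = 0.00014; -6.45 at 28°C). Of its 2 probe sets 1 was called lower at 6°C. Hoxc10 read 3.23, 3.74 and 4.25 in BAT and 9.69, 9.64 and 9.57 in sWAT (-5.89 ± 0.53, adjusted p = 2.4e-06; -6 at 28°C). In both genes every BAT array lay over 5 log2 under every sWAT array, at a level that 1.23 to 14.9% of its probe sets did not reach. Hoxa9 (-5.03 at 6°C, -3.39 at 28°C) and Hoxd10 (-4.12 and -4.1) were lower in BAT at both temperatures too. Hoxa4 (2.52 at 6°C, 2.98 at 28°C) and Hoxa5 (2.26 and 2.5), named here after their values were seen, were higher in BAT. The 7 lower in BAT at 6°C were all numbered 8 to 10, while the 8 higher were Hoxa3, Hoxa4, Hoxa5, Hoxc4, Hoxc5 and Hoxc6 and, at log2 levels of at most 6.53, Hoxa13 and Hoxb13. No Hox gene passed the test of the change between temperatures.

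**Figure D2:**
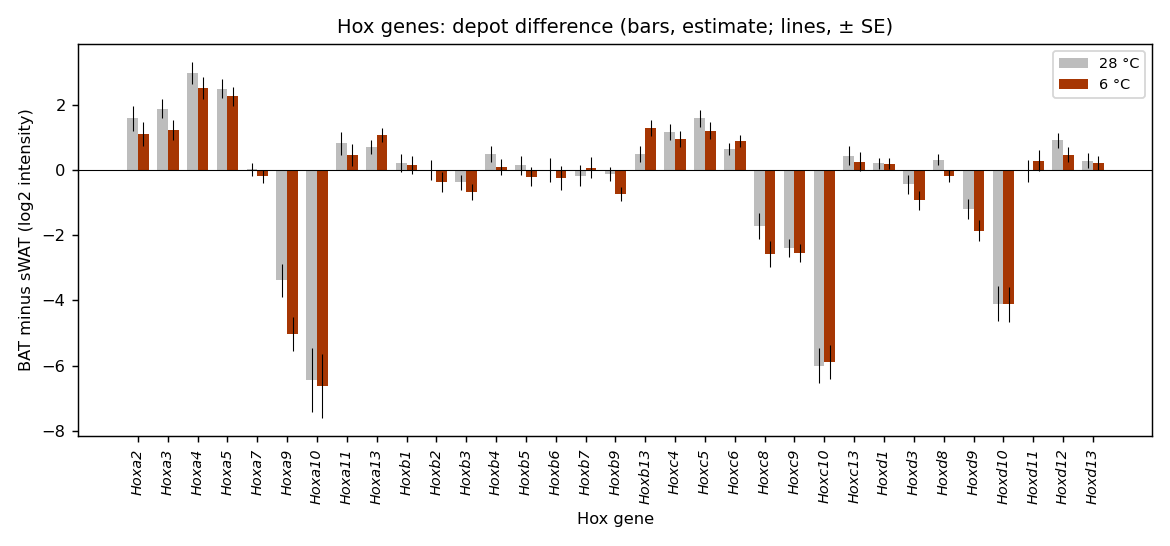
Bars give the log2 difference BAT minus sWAT of 33 Hox genes at 28°C (grey) and 6°C (brown), in order of cluster and number, with lines for ± SE. Hoxa10, Hoxc10, Hoxa9 and Hoxd10 lie under -3 at both temperatures, and Hoxa4 and Hoxa5 lie above 2.

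Genes of heat production were mostly higher in BAT at both temperatures, with a smaller median difference at 6°C. Of 27 measured, 24 were higher in BAT at 28°C and 20 at 6°C, of which 19 at both; the median difference was 2.7 log2 at 28°C and 1.4 at 6°C, beside 0.08 and 0.09 over all genes. The change of the depot difference was called below 0 for 7 of them and above 0 for 1, Bmp8b. Without the muscle-rich arrays 13 of the 27 were called at 6°C in either direction, against 21 with them. Their mean level was 12.19, 12.2 and 12.23 in the BAT arrays and 10.75, 10.22 and 10.69 in the sWAT arrays at 6°C, against 11.3 to 11.48 and 8.42 to 8.9 at 28°C. The list was written with the study's own choice of genes in view, so its direction is no independent evidence.

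Ucp1 read 14.39, 14.31 and 14.4 in BAT and 13.77, 13.68 and 13.95 in sWAT at 6°C. The BAT arrays were all above the sWAT arrays, by a mean of 0.57 ± 0.29 log2 that did not pass the test (adjusted p = 0.14). At 28°C it had read 14 to 14.07 in BAT and 9.52 to 10.55 in sWAT, a difference of 3.87 log2, and the change of -3.31 passed (adjusted p = 0.0019; 0.013 without the muscle-rich arrays). In sWAT the level was 3.65 log2 higher at 6 than at 28°C (adjusted p = 4.3e-05), and in BAT 0.34 (adjusted p = 0.52). The BAT values at 6°C lay 0.14 to 0.27 log2 below the brightest probe set of their arrays, and the sWAT values 0.52 to 0.81 below it, which leaves little room above them; whether this limits the difference at 6°C was not tested.

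Cox7a1, the heart and muscle form of a cytochrome c oxidase subunit that brown fat also uses, read 13.38, 13.33 and 13.41 in BAT and 12.45, 12.05 and 12.44 in sWAT at 6°C. It was 1.06 ± 0.25 log2 higher in BAT (adjusted p = 0.0038), against 4.19 at 28°C, with a change of -3.13 (adjusted p = 0.0011). The groups did not overlap, but the call at 6°C was lost without any 1 of the BAT arrays or without sWAT array 2 (adjusted p of 0.011 to 0.041, the removal of both muscle-rich arrays included). Fabp3, a cytosolic fatty acid carrier of heart and brown fat, read 14.21, 14.16 and 14.18 in BAT and 13.4, 12.52 and 13.57 in sWAT, a difference of 1.02 ± 0.3 that missed the threshold (adjusted p = 0.016) after 4.28 at 28°C (change -3.26, adjusted p = 0.0025). Its other probe set was called higher at 6°C. The values of Fabp3 given for BAT at 6°C lay 0.36 to 0.42 log2 below the brightest probe set of the array.

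Ppara, the nuclear receptor that drives genes of fatty acid oxidation, kept a called difference while it narrowed. It read 11.78, 11.16 and 11.33 in BAT and 8.97, 8.9 and 9.08 in sWAT at 6°C, with no overlap. The difference was 2.44 ± 0.27 log2 (adjusted p = 1.2e-05), or 5.44-fold, against 5.59 at 28°C, or 48.2-fold, and the change was -3.15 (adjusted p = 0.0015; 0.011 without the muscle-rich arrays). At 28°C the sWAT arrays had read 5.89 to 6.09 and the BAT arrays 11.41 to 11.7. Cox8b, another muscle-type oxidase subunit named here after its values were seen, was not called at 6°C (0.55, adjusted p = 0.03) after 2.3 at 28°C, and its change was called as well.

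**Figure D3:**
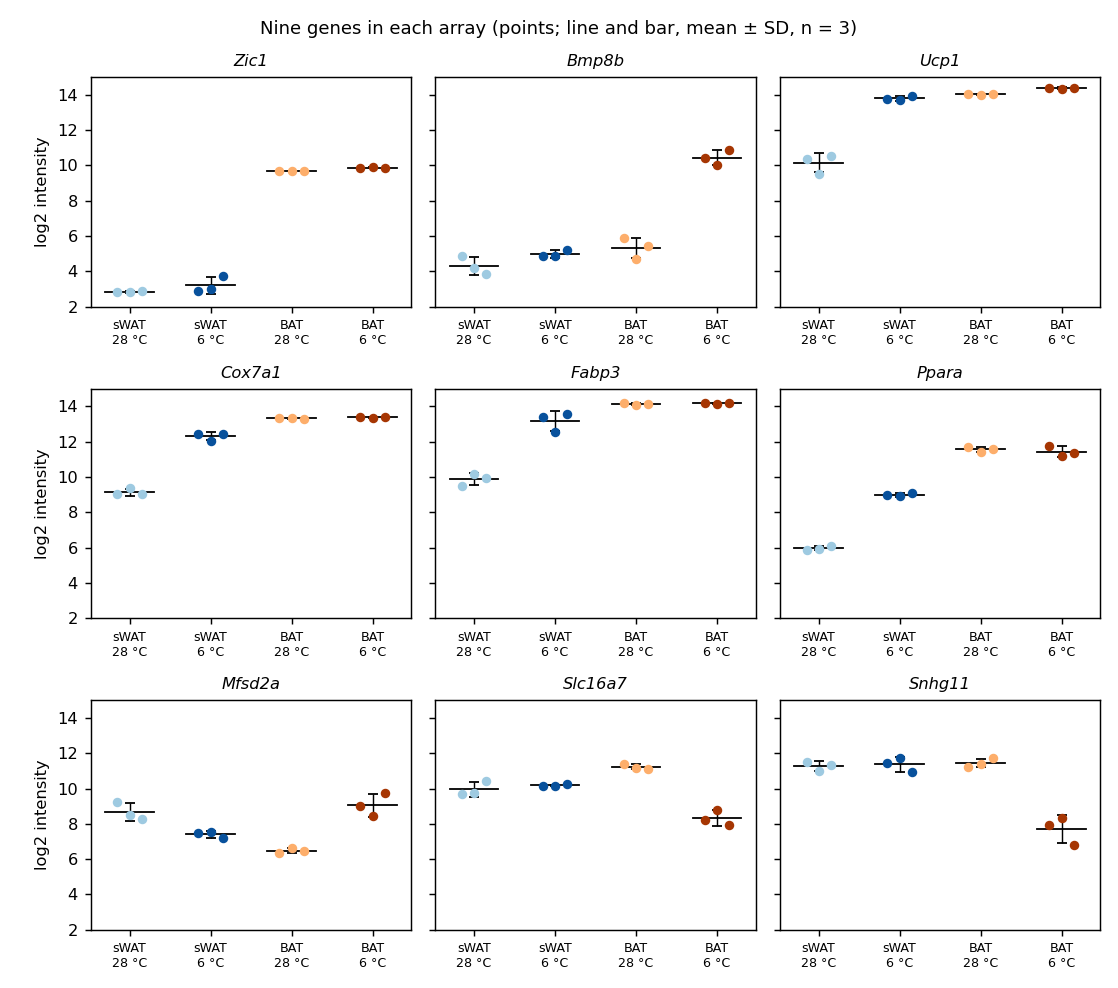
Log2 intensity of 9 genes in each array of sWAT and BAT at 28 and 6°C (points), with the mean and ± SD of 3 arrays. Zic1 is high in BAT alone at both temperatures, Ucp1, Cox7a1, Fabp3 and Ppara are higher in sWAT at 6 than at 28°C, and Bmp8b is high only in BAT at 6°C.

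The promoters of 5 of these genes are shown, because they cover a difference that persisted (Zic1), differences that narrowed (Ucp1, Cox7a1, Fabp3) and one that opened in the cold (Bmp8b). Each is the 250 bases before the RefSeq start of the gene in GRCm38.p6, read 5′ to 3′ on the strand of the gene. Capitals mark AGGTCA, the core of the element bound by many nuclear receptors, TGACG, the core of the element bound by CREB and related factors, and CCAAT, a common promoter motif; both strands were searched, so that ATTGG in capitals is CCAAT on the other strand.
Ucp1, chr8:83290098-83290347, + strand: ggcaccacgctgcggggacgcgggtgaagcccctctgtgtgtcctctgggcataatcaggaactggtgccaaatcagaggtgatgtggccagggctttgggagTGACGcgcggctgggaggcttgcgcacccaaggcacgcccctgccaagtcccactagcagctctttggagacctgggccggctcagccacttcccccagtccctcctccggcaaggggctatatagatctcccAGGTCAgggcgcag
Cox7a1, chr7:30183921-30184170, + strand: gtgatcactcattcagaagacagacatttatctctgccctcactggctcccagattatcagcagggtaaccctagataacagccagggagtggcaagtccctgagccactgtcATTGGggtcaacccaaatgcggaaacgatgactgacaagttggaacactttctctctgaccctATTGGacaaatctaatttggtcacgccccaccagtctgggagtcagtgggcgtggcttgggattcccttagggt
Fabp3, chr4:130308488-130308737, + strand: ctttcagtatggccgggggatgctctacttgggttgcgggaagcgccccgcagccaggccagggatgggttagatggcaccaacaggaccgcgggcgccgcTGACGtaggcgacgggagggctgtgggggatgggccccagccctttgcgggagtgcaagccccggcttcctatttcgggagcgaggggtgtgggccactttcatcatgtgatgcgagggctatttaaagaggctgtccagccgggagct
Zic1, chr9:91365769-91366018, - strand: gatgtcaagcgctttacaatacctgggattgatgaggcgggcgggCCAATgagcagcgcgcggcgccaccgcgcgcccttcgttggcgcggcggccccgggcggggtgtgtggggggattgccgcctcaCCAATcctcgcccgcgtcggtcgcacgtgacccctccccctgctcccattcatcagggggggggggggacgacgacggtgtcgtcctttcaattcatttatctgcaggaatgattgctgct
Bmp8b, chr4:123104911-123105160, + strand: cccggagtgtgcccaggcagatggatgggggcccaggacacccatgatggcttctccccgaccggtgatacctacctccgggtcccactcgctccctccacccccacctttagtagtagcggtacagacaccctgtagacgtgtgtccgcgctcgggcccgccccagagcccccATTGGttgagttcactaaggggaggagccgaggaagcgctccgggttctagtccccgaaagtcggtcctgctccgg
Ucp1 holds AGGTCA starting 14 bases and TGACG 147 bases before its start. Fabp3 holds TGACG 149 bases before its start, and the other 3 hold CCAAT alone. Of 14452 tested genes with a window, 14.6% hold AGGTCA, 25.9% TGACG and 39.4% CCAAT. Of the 1279 genes with a window that were higher in BAT at both temperatures the shares are 14.9%, 31.4% and 38.5%, of the 1312 lower at both 12.9%, 21.3% and 38%, and of the 31 that were higher at 28°C and narrowed 6.45%, 32.3% and 41.9%. A gene with several windows was counted if any of them held the motif. Over all 32851 single windows the shares are 14%, 17.8% and 33.8%, and each gene shown has a single window. These are shares of letters in a window and were not tested.

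Other genes of heat production were called higher in BAT at both temperatures, with a change that did not pass the test. Slc27a2, a very long chain acyl-CoA synthetase and fatty acid transporter, read 12.86, 12.5 and 12.84 in BAT and 9.36, 8.59 and 9.42 in sWAT at 6°C (3.61 ± 0.34 log2, adjusted p = 3.5e-06; 6.04 at 28°C, change -2.43, adjusted p = 0.022). Dio2, the deiodinase that makes active thyroid hormone inside brown adipocytes, read 12.27, 12.54 and 12.56 in BAT and 10.96, 9.17 and 10.54 in sWAT (2.23 ± 0.45, adjusted p = 0.0016; 2.75 at 28°C). Ppargc1a, the coactivator of mitochondrial biogenesis, read 11.12, 11.46 and 11.25 in BAT and 9.46, 9.33 and 9.23 in sWAT (1.93 ± 0.4, adjusted p = 0.0016; 2.7 at 28°C). In all 3 the BAT arrays lay above the sWAT arrays; without the muscle-rich arrays the adjusted p of Dio2 was 0.023 and that of Ppargc1a 0.021. The orphan nuclear receptor Esrrg (2.49 at 6°C, 3.61 at 28°C), the mitochondrial ion exchanger Letm1 (1.4 and 1.54) and the pantothenate kinase Pank1 (2.21 and 4.16, change -1.95, adjusted p = 0.011) were called at both temperatures.

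Kng1, which encodes the kininogen precursor of bradykinin, has 2 probe sets. Its brighter probe set read 12.89, 12.85 and 13.04 in BAT and 10.05, 8.92 and 10.18 in sWAT at 6°C, a difference of 3.21 log2 after 5.96 at 28°C, and the change of -2.75 passed (adjusted p = 0.0049, or 0.011 to 0.016 without any 1 array other than sWAT array 2 at 6°C and sWAT array 3 at 28°C). Its other probe set differed by 4.21 log2 at 6°C and 4.05 at 28°C. Both were called higher in BAT at both temperatures. The dimmer one read 3 to 3.04 in sWAT at 28°C, a level under which only 3.51 to 3.77% of an array's probe sets lay, so its difference there may be understated and its change is not compared with that of the brighter. Cpn2, the regulatory subunit of carboxypeptidase N, was 3.57 log2 higher in BAT at 6°C and 5.98 at 28°C.

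Some genes known for heat production or for brown adipocytes did not pass at 6°C. Cidea, a lipid droplet protein of brown adipocytes, differed by 0.57 ± 0.24 log2 (adjusted p = 0.075; 2.08 at 28°C), and Nrg4, a secreted neuregulin, by 0.32 ± 0.17 (adjusted p = 0.16; 1.42 at 28°C). In both genes every BAT array at 6°C lay above every sWAT array. Cidea in BAT lay 0.56 to 0.62 log2 below the brightest probe set of the array. Elovl3, the elongase of very long chain fatty acids in brown fat, read 12.82, 12.74 and 12.97 in BAT and 11.2, 10.34 and 11.46 in sWAT at 6°C, a difference of 1.84 ± 0.62 log2 (adjusted p = 0.03), with the sWAT arrays spread over more than 1 log2. At 28°C it was not called either (0.71).

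Bmp8b, a secreted bone morphogenetic protein that acts on brown fat and on the brain in heat production, showed the reverse: a depot difference that was present in the cold and not called at 28°C. It read 10.4, 10.04 and 10.86 in BAT and 4.84, 4.84 and 5.22 in sWAT at 6°C. At 28°C it read 5.86, 4.71 and 5.41 in BAT and 4.88, 4.21 and 3.84 in sWAT, so that only BAT in the cold was high. The difference was 5.47 ± 0.31 log2 at 6°C (adjusted p = 7.6e-08) and 1.02 at 28°C (adjusted p = 0.018), and the change of 4.45 passed (adjusted p = 0.00048). Its brighter probe set gave 4.37, 0.99 and a change of 3.38 (adjusted p = 0.0015). Within BAT the first probe set was 5.1 log2 higher at 6 than at 28°C (adjusted p = 4.6e-07), and within sWAT 0.66 (adjusted p = 0.4).

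In all, 2503 probe sets were higher in BAT at 6°C and not called at 28°C, of which 43 passed the test of the change; 1579 were lower at 6°C alone, of which 20 did. Acot12, a cytosolic acetyl-CoA hydrolase, read 8.79, 8.63 and 8.56 in BAT and 5.11, 4.15 and 4.88 in sWAT at 6°C (3.94 ± 0.21 log2, adjusted p = 6.3e-08; 0.62 at 28°C), with a change of 3.32. Lgr6, a receptor for R-spondins, was 4.21 log2 higher at 6°C and 1.08 at 28°C, a change of 3.13 that was not called. Ak4, a mitochondrial adenylate kinase, was 3.45 and 1.51 higher, and its change was not called either (adjusted p = 0.13). Vil1, the actin bundler villin, was 3.52 log2 higher at 6°C and 1.02 at 28°C (change 2.5; this call was lost without any 1 array other than sWAT array 2 at 6°C and sWAT array 3 at 28°C). Rspo4, an R-spondin ligand of Wnt signalling, was 5.15 log2 higher at 6°C and 3.67 at 28°C and was called at both. Also called higher at 6°C, by 3.27 to 3.67 log2, and not called at 28°C were Pzp (1.69 at 28°C, adjusted p = 0.016), Slco4a1 (1.73, 0.012), Zswim5 (1.38, 0.018), Lrrc52 (0.84, 0.042) and 1700061I17Rik (0.67, 0.048). Of these 5 the change passed for 1700061I17Rik alone (2.6, adjusted p = 0.0028, or 0.01 to 0.015 without BAT array 1 at 6°C, without BAT array 2 or 3 at 28°C or without the muscle-rich arrays).

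Snhg11, a small nucleolar RNA host transcript, was the counterpart among genes that were lower in BAT in the cold. It read 7.95, 8.34 and 6.81 in BAT and 11.47, 11.74 and 10.92 in sWAT at 6°C, a difference of -3.68 ± 0.36 log2 (adjusted p = 5e-06). At 28°C the depots overlapped, at 11.24 to 11.71 in BAT and 10.99 to 11.52 in sWAT (0.17, adjusted p = 0.74), and the change of -3.85 passed (adjusted p = 0.0027). Aoc1 (-6.15 at 6°C, -4.3 at 28°C) and Ido1 (-5.38 and -3.27) differed by more at 6°C and were not called at 28°C. Their changes did not pass (adjusted p of 0.72 and 0.62). Both lost the call at 6°C without the muscle-rich arrays (adjusted p = 0.017). Lep, the satiety hormone leptin of white adipocytes, named as a white adipocyte marker after its values were seen, read 8.57, 10.55 and 9.92 in BAT and 12.33, 11.34 and 12.36 in sWAT at 6°C (-2.33 ± 0.58 log2, adjusted p = 0.0061). At 28°C it was not called (-0.08). None of the 19 white adipocyte markers, Lep included, passed the test of the change.

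Widening of a difference already called at 28°C was seen for 7 probe sets, and 6 of them name 1 gene. St3gal5, the sialyltransferase that makes the ganglioside GM3, read 10.19, 9.85 and 10.13 in BAT and 7.22, 6.62 and 6.8 in sWAT at 6°C (3.18 ± 0.18 log2, adjusted p = 7.8e-08), after 0.71 at 28°C, with a change of 2.46 (adjusted p = 0.00074). Glod5 (3.4 at 6°C, 1.24 at 28°C), Tcl1 (2.89 and 1.12) and Cars2, the mitochondrial cysteinyl-tRNA synthetase (2.05 and 0.94), widened on the BAT side. Sulf2, an extracellular heparan sulfatase (-2.22 and -0.62), and Tbc1d2b (-1.52 and -0.52) were lower in BAT and widened. Their levels at 6 minus 28°C were -1.59 and -1.14 log2 within BAT and 0.01 and -0.13 within sWAT. The changes of Glod5 and Tcl1 were lost without the muscle-rich arrays (adjusted p = 0.017 for both). The change of Cars2 was lost whichever 1 array was left out, that of Sulf2 without 8 of the 12 and that of Tbc1d2b without 7 (adjusted p of 0.01 to 0.044).

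Opposite directions at the 2 temperatures were found for 18 probe sets, 11 higher in BAT at 28°C and lower at 6°C and 7 the other way. Of these, 15 name 1 gene, 14 genes in all. Mfsd2a, a transporter of lysophosphatidylcholine, read 9.01, 8.44 and 9.73 in BAT and 7.49, 7.51 and 7.19 in sWAT at 6°C, and 6.34, 6.65 and 6.47 in BAT and 9.24, 8.49 and 8.29 in sWAT at 28°C. The depots did not overlap at either temperature and changed places: the difference was 1.66 ± 0.27 log2 at 6°C (adjusted p = 3e-04) and -2.19 at 28°C, with a change of 3.85 (adjusted p = 0.00057). Slc16a7, the monocarboxylate transporter MCT2, read 8.24, 8.8 and 7.94 in BAT and 10.17, 10.14 and 10.23 in sWAT at 6°C (-1.86 ± 0.26, adjusted p = 9.5e-05), after 1.28 at 28°C (change -3.13, adjusted p = 0.0015).

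Car1, a carbonic anhydrase (-1.81 at 6°C, 1.27 at 28°C), and the neurotensin receptor Ntsr2 (1.34 and -1.51) crossed as well. The chemokine Cxcl12 crossed with smaller differences (0.67 and -0.54), and the other 9 genes were 1700001D01Rik, AU022252, Fbxo36, Guf1, H2-T3, Hspa4, Lman2, Ogt and Rasd1, all named because they make up the count. Ivns1abp was 2.52 log2 higher in BAT at 28°C and read 7.56, 7.68 and 8.11 in BAT against 7.79, 8.31 and 8.95 in sWAT at 6°C, where the arrays overlapped (-0.56, adjusted p = 0.17). Cideb, a lipid droplet protein related to Cidea, narrowed from 5.01 to 1.94 log2 and was still called at 6°C, though not without the muscle-rich arrays (adjusted p = 0.017). The largest change of any probe set, -7.57 (adjusted p = 0.0057), belonged to one that names no single gene, which read 9.84, 11.03 and 10.84 in BAT at 28°C and 2.47, 2.5 and 3.38 in BAT at 6°C.

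The changes of Mfsd2a, Slc16a7, Bmp8b, Acot12, Snhg11, Fabp3, Cox7a1 and St3gal5 passed under every alternative run but the one without 3 arrays at 28°C. That of Cideb was lost on leaving out any 1 array, whichever it was, and that of Ntsr2 without any but BAT array 2 at 6°C; the difference of Ntsr2 at 6°C was lost without BAT array 3 or sWAT array 3. That of Ivns1abp was lost without BAT array 1 or 2 or sWAT array 2 or 3 at 6°C, any BAT array at 28°C, or sWAT array 1 or 2 at 28°C, and that of Car1 without sWAT array 2 or 3 at 6°C, any BAT array at 28°C, or sWAT array 2 at 28°C. Across these genes the adjusted p without the array was 0.01 to 0.033.

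Genes of mitochondria were mostly higher in BAT at both temperatures, with smaller medians at 6°C. Few of them passed the test of the change of the depot difference. It was called for 2 of 15 cytochrome c oxidase genes and 1 of 18 fatty acid oxidation genes. It was called for 0 genes of complexes I, II and III, ATP synthase, the citrate cycle, coenzyme Q synthesis, branched-chain amino acid breakdown, and the mitochondrial ribosome and transcription. In the mitochondrial ribosome and transcription list 35 of 39 genes were higher at 6°C and 37 at 28°C, with medians of 0.7 and 0.89 log2 (20 of 39 at 6°C without the muscle-rich arrays). Mrps5, a small-subunit protein, read 10.43, 10.4 and 10.46 in BAT and 9.2, 9.07 and 9.1 in sWAT (1.3 ± 0.13, adjusted p = 5.3e-06; 1.39 at 28°C), and Mrpl34 (1.15 and 1.73), Mrps23 (1.11 and 1.24) and Mrpl46 (1.07 and 1.14) were called at both temperatures. Coenzyme Q synthesis gave 9 of 12 higher at 6°C and 10 at 28°C (medians 0.84 and 1.13), led by Coq10a at 1.57 log2, Coq4 at 1.47 and Coq6 at 1.41.

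In the respiratory chain fewer members passed at 6°C than at 28°C. Complex I, which passes electrons from NADH, had 19 of 33 genes higher at 6°C and 32 at 28°C, with medians of 0.41 and 0.75 log2. Ndufs4 read 13.28, 13.26 and 13.27 in BAT and 12.57, 12.37 and 12.34 in sWAT at 6°C (0.84 ± 0.12, adjusted p = 1e-04; 1.14 at 28°C). The complex I count at 6°C moved from 6 without the muscle-rich arrays to 32 with arrays centred on their medians. Cytochrome c oxidase had 4 of 15 higher at 6°C and 12 at 28°C (medians 0.35 and 0.71), with 0 to 11 under the alternatives. The 4 were Cox7a1, the testis-type Cox6b2 (1.45), the lung-type Cox4i2 (0.8) and Cox5a (0.54). ATP synthase had 4 of 15 higher at 6°C and 8 at 28°C; its 5 calls at 6°C became 2 or 3 whichever 1 array at 6°C was left out and 3 without BAT array 1 at 28°C, 2 without the 3 arrays at 28°C, and 11 with centred arrays. The gene lower at both was Atp5g1, which encodes a c subunit of the proton ring, at 10.2, 10.61 and 10.07 in BAT and 11.81, 12.12 and 11.85 in sWAT (-1.63 ± 0.25, adjusted p = 0.00016). Of its 2 probe sets 1 was called lower at 6°C.

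In the citrate cycle 14 of 17 genes were higher in BAT at 6°C and 17 at 28°C (medians 0.62 and 1.19 log2), with Idh2 at 1.26, Ogdh at 0.94, Suclg2 at 0.89 and Dld at 0.88. Mitochondrial fatty acid oxidation gave 13 of 18 higher at 6°C and 16 at 28°C (medians 0.55 and 1.17), led by Acads at 0.97 and Eci1 at 0.95. Branched-chain amino acid breakdown gave 10 of 20 and 16 (medians 0.59 and 1.03). Without the muscle-rich arrays the counts at 6°C were 6 of 17 for the citrate cycle and 4 of 18 for fatty acid oxidation and 4 of 20 for branched-chain amino acids, and the last was 6 without sWAT array 3. At 6°C the 17 citrate cycle genes differed by 0.19 to 1.26 log2, so the remaining difference was at most 2.39-fold.

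**Figure D4:**
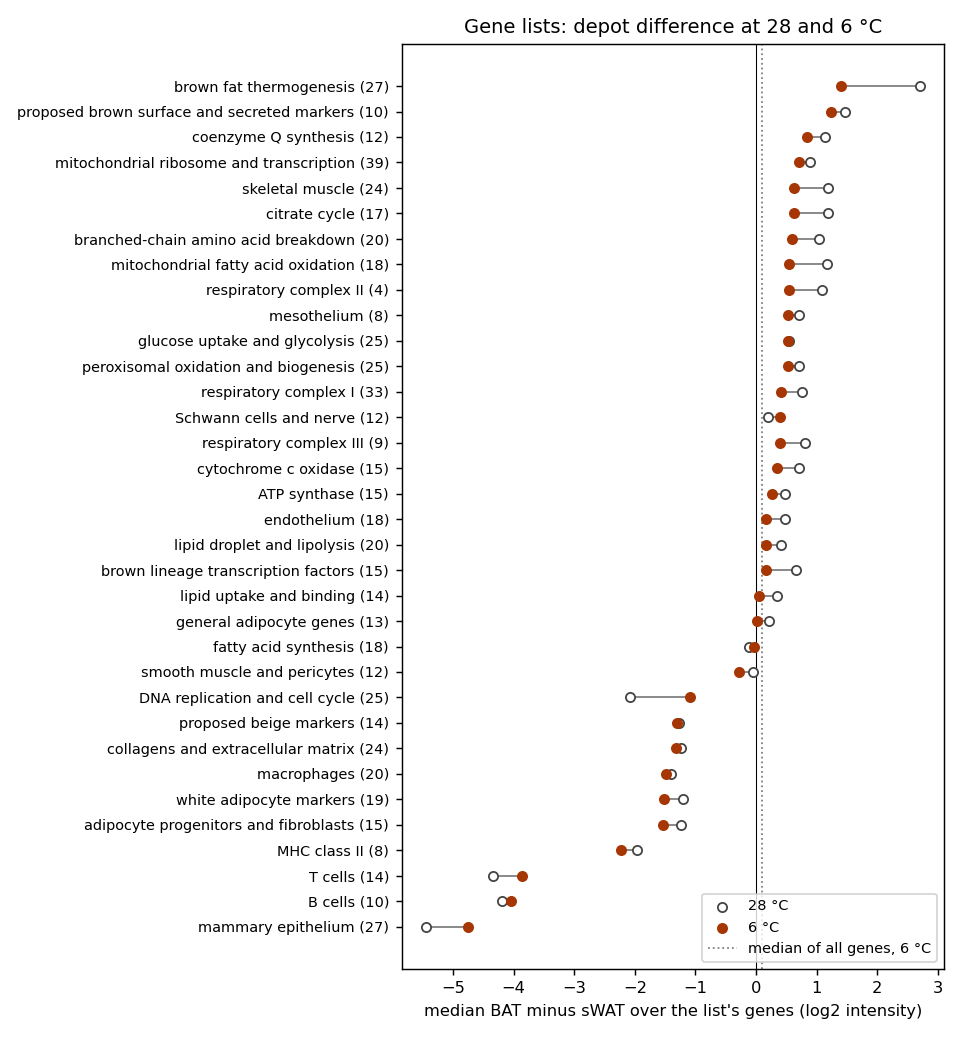
Median log2 difference BAT minus sWAT over the genes of each list at 28°C (open) and 6°C (filled), with the number of measured genes in parentheses and a dotted line at the median of all genes at 6°C (0.09). Thermogenesis (2.7 to 1.4) and the oxidative lists move towards 0 at 6°C, while macrophages, MHC class II and extracellular matrix stay near their values at 28°C.

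Adrenergic and cAMP signalling had similar counts at both temperatures: 11 of 23 genes were higher in BAT and 2 lower at 6°C, against 12 and 0 at 28°C, with medians of 0.5 and 0.49 log2. Pde4d, a cAMP phosphodiesterase, read 11.61, 11.6 and 11.53 in BAT and 9.5, 9.43 and 9.52 in sWAT (2.09 ± 0.14, adjusted p = 2.2e-07; 2.26 at 28°C). The adenylyl cyclases lay on opposite sides, Adcy3 at 1.95 and Adcy5 at -1.99 log2, and the G protein subunit Gnao1 was 2.19 higher in BAT. The count of 13 called fell to 8 without BAT array 1, to 7 without BAT array 2, to 6 without BAT array 3, to 7 without sWAT array 2 or sWAT array 3, to 8 without array 3 of BAT at 28°C, to 7 without the 3 arrays at 28°C and to 5 without both muscle-rich arrays. Glucose uptake and glycolysis gave 12 of 25 higher and 1 lower at 6°C and 13 and 1 at 28°C (medians 0.52 and 0.54), with Pfkl at 1.36 and Ldhb at 1.09 log2, and 8 called without BAT array 1, 7 without the muscle-rich arrays and 20 with centred arrays. The general adipocyte genes, a check that both depots are fat, gave 0 of 13 called by limma in either direction at 6°C and 0 to 3 under the alternatives. An unadjusted p under 0.05 was found for 5 of them and for 21496 of all 45037 probe sets. Their mean level was 13.24 to 13.28 in BAT and 13.23 to 13.29 in sWAT. Pparg, the master regulator of adipocytes, differed by 0.46 ± 0.14 log2 (adjusted p = 0.017).

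Of 14 markers proposed for beige adipocytes, 7 were lower in BAT, 1 was higher and 6 were not called at 6°C, against 7 lower and 2 higher at 28°C, with medians of -1.31 and -1.28 log2. Tbx1, a T-box factor, read 2.82, 3.87 and 4.01 in BAT and 6.6, 6.54 and 6.53 in sWAT at 6°C (-2.99 ± 0.37, adjusted p = 2.8e-05; -2.27 at 28°C). Its BAT arrays at 6°C lay near the bottom of the scale, where 0.702 to 11.9% of an array's probe sets read lower. In the sWAT arrays 43.2 to 43.6% did. Shox2 (-2.14 and -2.58) and Cited1 (-2.09 and -4.49), both transcriptional regulators, were lower in BAT at both temperatures. The call of Cited1 at 6°C was lost without BAT array 3 or sWAT array 1 (adjusted p = 0.011), and without BAT array 3 the list had 5 called. Of the white adipocyte markers 11 of 19 were lower in BAT and 0 higher at 6°C (median -1.52), against 13 and 0 at 28°C (median -1.21). Hoxc9 and Hoxc8 are shared with the Hox list, and Sncg, a synuclein of white adipocytes, read 9.47, 9.56 and 9.66 in BAT and 11.66, 12.36 and 11.89 in sWAT (-2.41 ± 0.32, adjusted p = 5.2e-05). Nrip1, a corepressor that restrains brown-type genes, was lower in BAT at both temperatures (-1.49 and -1.26).

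The genes furthest below in BAT were those of epithelium. The inguinal depot of a female mouse holds mammary ducts. Of 27 mammary epithelial genes 21 were lower in BAT at 6°C and 22 at 28°C, with none higher and medians of -4.75 and -5.44 log2; 20 to 21 were called under every alternative run. Their mean level was 5.36, 4.99 and 5.5 in BAT and 9.48, 9.25 and 9.28 in sWAT. Csn3, the milk protein kappa-casein, read 6.38, 3.05 and 6.19 in BAT and 12.91, 12.79 and 12.79 in sWAT at 6°C (-7.63 ± 1.29, adjusted p = 0.00039). Foxa1 (-7.2), Cdh1 (-6.7), Krt18 (-6.65) and Ehf (-6.64), all of epithelial cells, and Pgr, the progesterone receptor (-6.57), were among the 10 lowest genes, with Cxcl15 (-7.32), Tmprss2 (-6.71) and C130021I20Rik (-6.44); all 10, Hoxa10 included, were also lower at 28°C. Of the 4 probe sets of Ehf 2 were called lower at 6°C.

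Immune cell genes were lower in BAT as well. Of 20 macrophage genes 16 were lower at 6°C and 15 at 28°C (medians -1.48 and -1.4 log2), and of 8 MHC class II genes 7 and 7; the latter count was 4 without BAT array 3. Arg1, arginase of alternatively activated macrophages, read 5.17, 4.56 and 5.12 in BAT and 9.49, 9.34 and 9.37 in sWAT (-4.45 ± 0.34, adjusted p = 7e-07; -3.81 at 28°C), and Clec10a, a macrophage lectin, differed by -2.9 log2. All 14 T cell genes were lower in BAT with an unadjusted p under 0.05, with a median of -3.86 log2. Of all 45037 probe sets 21496 had such a p in either direction. With the mesenteric arrays in the estimate of spread only 2 passed the threshold, Il7r (-4.38) and Cd2 (-3.66). Over all genes 13.4% were called lower, so this T cell count lay near the share of all genes. In a fit without the mesenteric arrays 14 of 14 passed, and without BAT array 2, BAT array 3, sWAT array 2 or sWAT array 3 none did. Of 10 B cell genes 4 were called lower, namely Ms4a1, Blk, Cd79b and Cd79a (-4.45 to -3.91), 9 in a fit without the mesenteric arrays and 0 without any 1 of BAT arrays 1 and 3 and sWAT arrays 2 and 3. The mean T cell level was 5.76 to 6.04 in BAT and 9.03, 9.94 and 10 in sWAT.

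Matrix and progenitor genes were mostly lower in BAT. Of 24 genes of collagens and extracellular matrix 17 were lower and 1 higher in BAT at 6°C, against 20 and 1 at 28°C, with medians of -1.32 and -1.24 log2. Mmp2, a gelatinase, read 10.02, 10.5 and 9.75 in BAT and 12.68, 12.45 and 12.27 in sWAT (-2.38 ± 0.21, adjusted p = 1.9e-06; -1.73 at 28°C). Of 15 genes of adipocyte progenitors and fibroblasts 9 were lower at 6°C and 9 at 28°C, among them Dpp4 (-2.82), a surface peptidase of interstitial progenitors, and Thy1 (-2.52). The muscle list gave 3 of 24 higher at 6°C and 28°C, Mb (3.95 log2), Actn2 (1.83) and Des (1.22), of which Mb, the oxygen carrier myoglobin, read 12.51, 12.39 and 13.03 in BAT and 8.06, 9.81 and 8.22 in sWAT. Over all genes 13.4% were higher in BAT at 6°C and 14.5% at 28°C, so the muscle count lay near the share of all genes. Without sWAT array 1 or 3 the list had 1 called at 6°C. The share of these cell types in the depot differences was not tested.

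**Figure D5:**
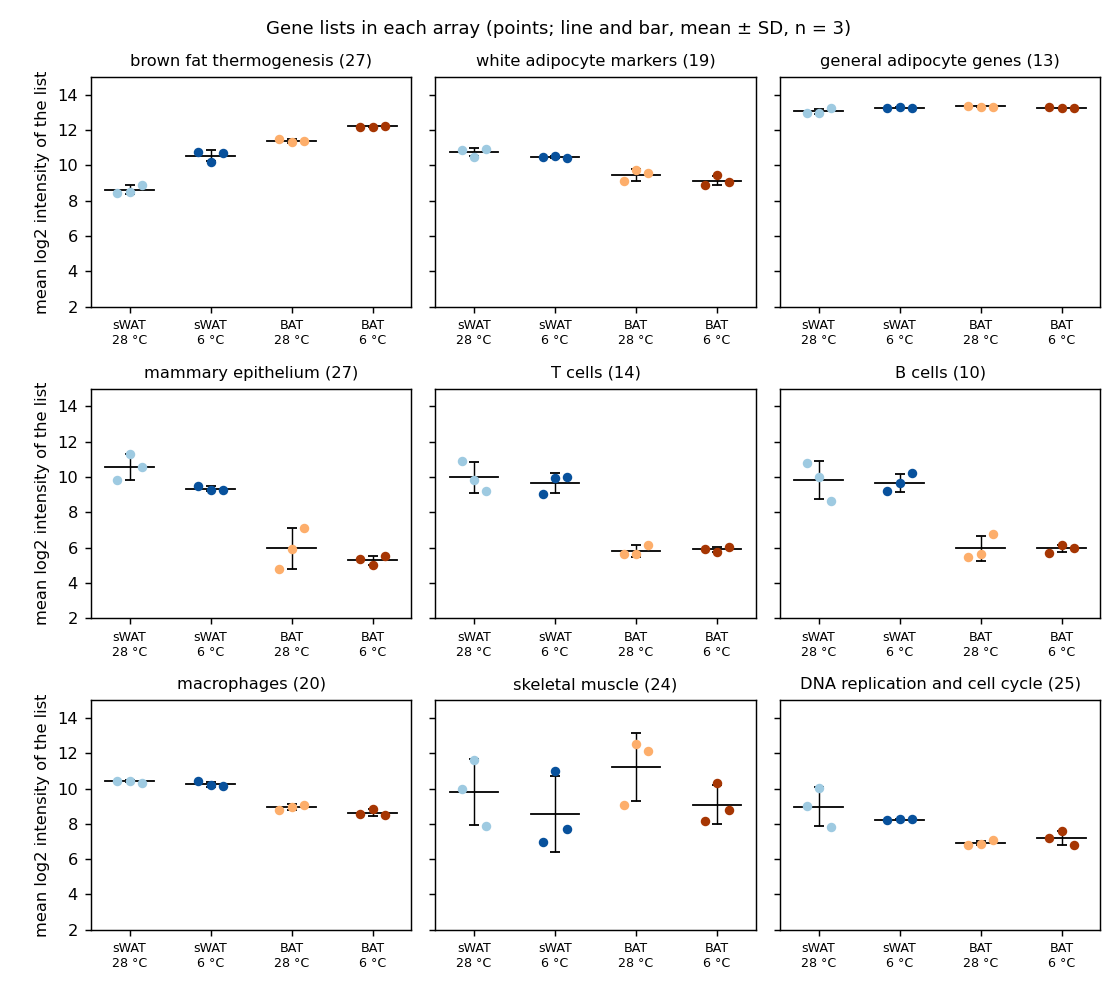
For 9 gene lists, points give the mean log2 intensity of the list in an array of sWAT or BAT at 28 or 6°C, with mean and ± SD of 3 arrays and the number of genes in parentheses. General adipocyte genes lie at 13.23 to 13.29 in all 6 arrays at 6°C, mammary epithelium, T cells, B cells and macrophages lie higher in every sWAT array at 6°C, and muscle is highest in array 2 of each depot at 6°C.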

How the data were processed

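RNA was extracted with Trizol and RNeasy, amplified with NuGEN Ovation and hybridized to Affymetrix mouse arrays. The deposited value table holds 1 linear intensity for each probe set and array, made by the authors in Bioconductor by adjusting background, summarizing and normalizing; the algorithm is not given in the sources used here. The methods and legends name different array types. After 64 control probe sets were left out, log2 intensity of all 18 arrays was fitted in R 4.3.3 with limma 3.58.1, with 6 group means (12 residual and 2.64 prior degrees of freedom) and Benjamini-Hochberg adjustment over 45037 probe sets. No test pairs arrays. The number of arrays limits the precision, and p-values measure the spread between these samples.

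Of the probe sets, 34945 name 1 gene, 932 several and 9160 none. A gene or list member stands for its brightest probe set unless said otherwise; 766 of 827 distinct list members in 45 lists were measured. Other probe sets of a named gene were not always called with it. Named genes, as counted here, were the 10 largest differences each way at 6°C, the 10 largest narrowings and widenings, the 10 largest differences each way called at 6°C and not at 28°C, the genes the study singles out, and up to 4 members of a list. The first of these rules took only probe sets whose BAT and sWAT arrays at 6°C did not overlap. Lack of overlap in the genes it picked, Zic1 among them, was therefore set by the choice. Not all of them appear in the text. Members and lists were chosen with earlier results of these data known. The fit was tested on simulated data. Alternatives were other thresholds, fewer arrays in the fit, quantile normalization, median centring, dim probe sets left out, a variance trend with robust estimates, averaging a gene's probe sets, and each array left out in turn. Leaving out together the 2 muscle-rich arrays at 6°C, or 3 at 28°C, was added after the data were seen.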

Additional observations from a re-analysis of the deposited data

Results flagged for a closer look

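For the following genes the depot difference itself changed between 28 and 6°C by the test of the difference (limma, adjusted p under 0.01). The values are the log2 change of BAT minus sWAT, 6°C minus 28°C. The change was above 0 for Bmp8b (4.45, and 3.38 by its brighter probe set), Mfsd2a (3.85), Acot12 (3.32), Ntsr2 (2.84), 1700061I17Rik (2.6), Vil1 (2.5), St3gal5 (2.46), Glod5 (2.15), Alpl (1.98), Tcl1 (1.77), Cars2 (1.11) and Acot8 (0.96). It was below 0 for Snhg11 (-3.85), Ucp1 (-3.31), Fabp3 (-3.26), Ppara (-3.15), Slc16a7 (-3.13), Cox7a1 (-3.13), Ivns1abp (-3.08), Car1 (-3.08), Cideb (-3.06), Kng1 (-2.75), Olig1 (-2.02), Sulf2 (-1.59) and Tbc1d2b (-1). All 26 lost the call without the 3 muscle-rich arrays at 28°C, and 17 lost it under at least 1 other alternative.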

How the results depend on the processing

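The counts moved most with the threshold and with the 2 muscle-rich arrays. At an adjusted p under 0.05, 17227 probe sets were called at 6°C (10003 higher in BAT, 7224 lower) and 16567 at 28°C, 765 passed the test of the change, 5980 were higher and 5052 lower in BAT at both temperatures, and 345 and 118 narrowed. With at least 1 log2 asked for, 5829 were called at 6°C (2636 higher), 6064 at 28°C and 1375 were higher at both. With centred arrays 9675 were higher at 6°C and 5618 at both. Without dim probe sets 313 changes passed, with 146 and 47 narrowed, and with a variance trend and robust estimates 292, with 134 and 37. With the BAT and sWAT arrays alone, 30 of those lower in BAT narrowed. Without the muscle-rich arrays 5664 were called at 6°C (3030 higher, 2634 lower), 37 changes passed, 1983 and 1960 were called at both temperatures, and 17 and 3 narrowed. Without the 3 muscle-rich arrays at 28°C, which leaves 1 BAT array there, 3557 were called at 28°C, 0 changes passed (4090 at an unadjusted p under 0.05), 1550 were higher and 1354 lower at both temperatures, and 0 and 0 narrowed.

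Leaving out 1 array at a time gave 7418 to 10406 calls at 6°C (4134 to 5892 higher, 3253 to 4514 lower), 7236 to 10004 at 28°C, 47 to 135 changes, 2684 to 3229 higher and 2226 to 2561 lower at both, and 19 to 77 and 5 to 12 narrowed. Against 163 changes with all arrays, the number was 135 without sWAT array 3 at 28°C and 47 to 94 without any other 1 array, the fewest without BAT array 2 at 28°C. No called difference of a named gene took the other sign; the difference of Vegfc, which was not called, ran from -0.15 to 0.09. Of 196 named genes called at 6°C, 65 lost the call under at least 1 alternative. The median differences at 6°C of general adipocyte genes, fatty acid synthesis, endoplasmic reticulum folding, smooth muscle, Hox genes (-0.22 to 0.25), skeletal muscle (-0.53 to 2.1), Schwann cells (-0.67 to 0.56) and mesothelium (-4.69 to 0.71) took the other sign under at least 1 alternative. Levels near the top of the scale have little room to differ, and the table gives no background values.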

Other observations

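Nuclear receptors and their coregulators gave 10 of 22 genes higher in BAT and 2 lower at 6°C, against 9 and 3 at 28°C (medians 0.46 and 0.34 log2). The estrogen-related receptors lay on the BAT side. Esrrb, the member best known from stem cells, read 7.62, 8.16 and 8.78 in BAT and 5.11, 4.35 and 5.81 in sWAT at 6°C, a difference of 3.09 ± 0.49 log2 (limma adjusted p = 0.00024), and was not called at 28°C (0.2); the change of 2.89 missed the threshold (adjusted p = 0.051). Genes of endoplasmic reticulum folding gave 4 of 24 higher and 2 lower at 6°C, against 2 and 10 at 28°C and 13.4% higher and 13.4% lower over all genes at 6°C, so that the list lay near the share of all genes (3 called at 6°C without BAT array 1), with Xbp1, the factor of the unfolded protein response, lower in BAT at both (-1.55 and -0.99). Alpl, tissue-nonspecific alkaline phosphatase, read 11.4, 11.12 and 11.75 in BAT and 9.75, 9.57 and 9.68 in sWAT at 6°C (1.76 ± 0.2, adjusted p = 1.3e-05), after -0.23 at 28°C (change 1.98, adjusted p = 0.0033, and 0.01 to 0.012 where the call was lost: without BAT array 1 or 3 or sWAT array 2 or 3 at 6°C, BAT array 2 or 3 or sWAT array 2 at 28°C, or both muscle-rich arrays).

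Of 25 DNA replication and cell cycle genes none was called at 6°C by limma, and 9 were lower in BAT at 28°C. At 6°C 10 had an unadjusted p under 0.05, as had 21496 of all 45037 probe sets, so this count is not particular to the list. In a fit of the BAT and sWAT arrays at 6°C alone 12 were called, beside 4662 higher and 4874 lower of all probe sets. Mki67, a marker of dividing cells, read 7.44, 7.75 and 6.56 in BAT and 9.11, 9.1 and 9.24 in sWAT at 6°C (-1.9 ± 0.86, adjusted p = 0.095; -3.65 at 28°C). The proteasome gave 2 of 31 higher at 6°C (0 or 1 called whichever 1 array was left out), and the circadian clock 1 of 17 higher, Nfil3 (1.07), and 1 lower, Bhlhe41 (-1.65). Over all genes 13.4% were higher and 13.4% lower at 6°C, so both lists lay under the share of all genes.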
